A study of Mus musculus with 6 samples.

Results

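The immunity-related GTPases (IRG proteins) are a family of interferon-inducible GTPases. Irgm1, Irgm2, Igtp, Iigp1, Tgtp1, Tgtp2 and Gm4951 were followed here in spleens of imiquimod-treated, lupus-prone mice with and without the interferon-γ receptor. The 7 genes were chosen by name. They had 6 loci among the 44794 named loci of the deposited table, because Igtp and Irgm2 were merged into 1 locus. All 6 loci had a mean of at least 10 scaled fragment counts over the 6 libraries and were among the 19227 loci tested. No IRG locus passed the test between the genotypes, 5 of the 6 had a lower estimate in Sle1b.IFNγR-/- spleens, and Irgm1 was the exception.

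In mouse cells interferon-γ binds its receptor, receptor-bound JAK kinases signal to the nucleus, and the factor IRF1 helps to switch on the IRG genes. Effector IRG proteins, named GKS for the glycine-lysine-serine in their nucleotide-binding loop, load onto the vacuoles of parasites such as Toxoplasma gondii and break them open; Iigp1, Tgtp1 and Tgtp2 encode such effectors. Regulatory IRG proteins, named GMS for a methionine in place of the lysine, sit on the cell's own membranes and hold the effectors in their inactive, GDP-bound form; Irgm1, Irgm2 and Igtp encode them.

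RNA came from whole spleen. In 3 Sle1b.IFNγR-/- libraries the mice lacked the interferon-γ receptor, and in 3 B6.Sle1b libraries they carried the receptor. Both groups carry Sle1b, a lupus susceptibility interval bred onto the B6 background, and both received imiquimod, which stimulates TLR7, 3 times weekly over 4 weeks. The labels give neither age nor sex, do not name the receptor chain that was disrupted, and do not say whether each library is from its own mouse. The p-values therefore cover the spread among these 6 libraries, which may be partly technical. Untreated mice and mice without Sle1b were not analysed here. In whole spleen, fewer cells of a type and less RNA per cell cannot be told apart.

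The libraries held between 4394299 and 6349826 fragments. B6.Sle1b replicate 1 stood apart. Its named loci took 27.0% of all values, against 17.5% to 19.95% in the other 5 libraries, and its ribosomal protein genes averaged 1.58 on a log2 scale centred over the libraries, against -0.52 to 0.11. The level of 12 housekeeping genes ranged from -0.25 to -0.09 in Sle1b.IFNγR-/- and was 1.24, -0.77 and 0.02 in B6.Sle1b replicates 1 to 3. The member results and the list medians are therefore also given without B6.Sle1b replicate 1. B cell markers were all measured and summed to between 1099 and 1184 scaled counts in Sle1b.IFNγR-/- and between 971 and 2043 in B6.Sle1b. T cell markers summed to between 286 and 330 in Sle1b.IFNγR-/- and between 276 and 497 in B6.Sle1b, so both lymphocyte classes of the spleen were present. Ifngr1, the ligand-binding receptor chain, had 43.7, 21.4 and 24.0 scaled counts in Sle1b.IFNγR-/- and 81.5, 34.5 and 63.7 in B6.Sle1b. Because the altered chain and the altered part of it are not named, its transcript level is no check of the genotype.

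The promoters of 5 members were searched for the letters of 2 interferon response elements. The gamma-activated sequence (GAS), searched as TTCNNNGAA on both strands, is a response element of interferon-γ signalling. The interferon-stimulated response element (ISRE), searched as GAAANNGAAA on both strands, is bound by interferon regulatory factors. RefSeq promoters of build GRCm38.p6, from 250 bases before to 50 after the annotated start, were taken for the 5 members on chromosome 11. The promoters of Iigp1 and Gm4951 were left out of this comparison. Those of Irgm1 (chr11:48871371-48871670, minus strand), Irgm2 (chr11:58214727-58215026, plus strand), Igtp (chr11:58199306-58199605, plus strand), Tgtp1 (chr11:48992197-48992496, minus strand) and Tgtp2 (chr11:49064163-49064462, minus strand) are shown. The regulator Irgm1 differed from the others shown in these letters. A link between the letters and the expression values was not tested. Sequences run 5′ to 3′ on the strand of the gene, and capitals mark each motif match.
Irgm1: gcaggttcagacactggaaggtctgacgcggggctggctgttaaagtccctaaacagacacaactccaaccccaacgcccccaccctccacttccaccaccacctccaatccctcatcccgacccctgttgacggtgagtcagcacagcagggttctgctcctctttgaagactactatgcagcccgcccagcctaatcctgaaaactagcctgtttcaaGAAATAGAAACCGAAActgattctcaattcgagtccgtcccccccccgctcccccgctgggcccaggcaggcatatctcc
Irgm2: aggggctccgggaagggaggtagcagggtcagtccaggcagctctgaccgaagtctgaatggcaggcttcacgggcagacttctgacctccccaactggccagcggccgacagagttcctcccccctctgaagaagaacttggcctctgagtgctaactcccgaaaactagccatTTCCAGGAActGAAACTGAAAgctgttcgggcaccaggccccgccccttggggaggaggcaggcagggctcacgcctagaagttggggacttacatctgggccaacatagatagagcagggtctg
Igtp: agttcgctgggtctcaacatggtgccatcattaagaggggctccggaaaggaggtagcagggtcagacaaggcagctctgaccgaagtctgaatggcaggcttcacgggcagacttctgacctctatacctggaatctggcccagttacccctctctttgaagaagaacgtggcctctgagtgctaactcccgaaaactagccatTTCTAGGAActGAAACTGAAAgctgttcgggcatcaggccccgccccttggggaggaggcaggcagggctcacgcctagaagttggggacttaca
Tgtp1: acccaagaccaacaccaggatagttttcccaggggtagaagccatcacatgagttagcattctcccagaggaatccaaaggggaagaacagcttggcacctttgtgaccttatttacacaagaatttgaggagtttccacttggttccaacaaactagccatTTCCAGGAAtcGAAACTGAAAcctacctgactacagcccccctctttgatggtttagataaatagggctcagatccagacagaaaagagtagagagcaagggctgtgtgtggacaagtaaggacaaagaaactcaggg
Tgtp2: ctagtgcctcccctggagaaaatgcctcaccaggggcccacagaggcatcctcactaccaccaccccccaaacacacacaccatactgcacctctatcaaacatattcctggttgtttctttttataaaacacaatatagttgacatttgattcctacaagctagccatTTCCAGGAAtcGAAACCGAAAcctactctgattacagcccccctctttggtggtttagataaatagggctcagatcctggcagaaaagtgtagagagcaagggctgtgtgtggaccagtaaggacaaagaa
Irgm2, Igtp, Tgtp1 and Tgtp2 each held 1 GAS and 1 ISRE in the same order with 2 bases between them. The pair lay closest to the start in Igtp, with the GAS 45 to 37 and the ISRE 34 to 25 bases upstream. It lay farthest in Tgtp1, with the GAS 88 to 80 and the ISRE 77 to 68 bases upstream. Irgm1 held no GAS letters in this window and 2 ISRE matches that overlap each other, 30 to 21 and 24 to 15 bases upstream. Of 32851 RefSeq promoters of the same length, 3.44% held the ISRE letters, 8.30% the GAS letters and 0.454% both. The joined form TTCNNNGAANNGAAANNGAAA, written down from these members, occurred in 5 promoters (0.0152%), those of Irgm2, Igtp, Tgtp1, Tgtp2 and Gm12185, which shares the locus of Tgtp1. The bases just before the joined form were the same in each printed promoter that held it, and Tgtp1 and Tgtp2 are near-identical copies. The 5 promoters are therefore not independent occurrences. A match of letters is a description of the sequence and not evidence of binding.

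**Figure D1:**
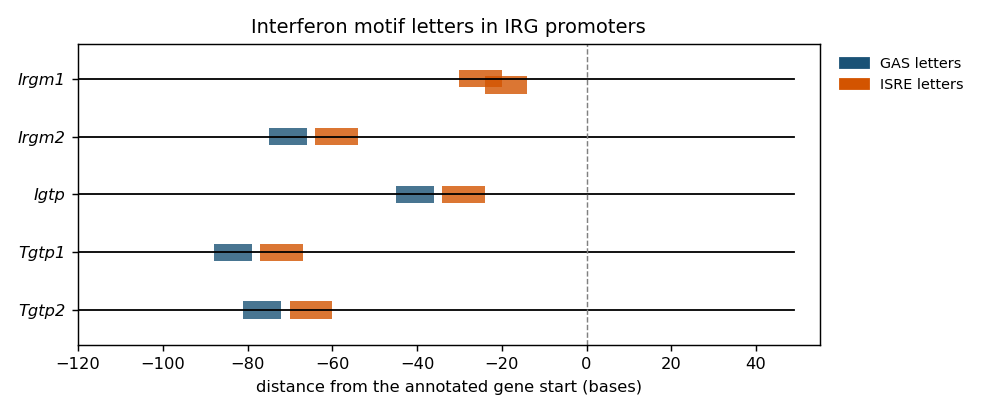
Positions of the GAS and ISRE letters in the promoters of the 5 IRG genes on chromosome 11. The horizontal axis is the distance from the annotated gene start in bases, and boxes mark matches. Irgm2, Igtp, Tgtp1 and Tgtp2 show a GAS followed by an ISRE, with 2 bases between, and Irgm1 shows 2 overlapping ISRE matches.

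The regulators were measured at Irgm1 and at the merged locus of Igtp and Irgm2. Irgm1, a GMS protein that mice need for resistance to mycobacteria (chromosome 11, 48861968 to 48871683, minus strand, GRCm38), had 108, 84.3 and 125 scaled counts in Sle1b.IFNγR-/- replicates 1 to 3, against 83.6, 74.0 and 103 in B6.Sle1b replicates 1 to 3. The groups overlapped, with B6.Sle1b replicate 2 lowest and Sle1b.IFNγR-/- replicate 3 highest. Irgm1 averaged 105 ± 20.2 in Sle1b.IFNγR-/- and 86.9 ± 14.8 in B6.Sle1b (SD, n = 3 each), a log2 difference of 0.27 (SE 0.29) on the log2(value + 1) scale. The adjusted p was 0.9998 by limma with Benjamini-Hochberg adjustment over all 19227 loci, and the unadjusted limma p was 0.36.

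Igtp, a GMS protein of the endoplasmic reticulum, and Irgm2, a GMS protein of the Golgi, shared 1 locus (chromosome 11, 58199556 to 58222782, plus strand), since the annotated Irgm2 transcripts reach back over Igtp. The locus had 33.2, 45.0 and 53.9 scaled counts in Sle1b.IFNγR-/- and 224, 42.7 and 68.4 in B6.Sle1b. B6.Sle1b replicate 1 held 66.8% of the B6.Sle1b sum, and replicate 2 lay inside the Sle1b.IFNγR-/- range. The means were 44.0 ± 10.4 in Sle1b.IFNγR-/- and 112 ± 98.2 in B6.Sle1b (SD, n = 3 each). The log2 difference was -0.995 (SE 0.49), with an unadjusted limma p of 0.065. The 2 genes cannot be separated in these values.

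The 3 effector loci had negative estimates, with a wider spread in B6.Sle1b than in Sle1b.IFNγR-/-. Tgtp2, a GKS effector (chromosome 11, 49057194 to 49064206, minus strand), had 21.9, 19.1 and 19.2 scaled counts in Sle1b.IFNγR-/- and 131, 18.1 and 47.8 in B6.Sle1b. The knockout libraries lay within 3 scaled counts of one another, while the B6.Sle1b libraries ranged from below all of them to far above. Means were 20.04 ± 1.57 in Sle1b.IFNγR-/- and 65.8 ± 58.8 in B6.Sle1b (SD, n = 3 each). The log2 difference was -1.24 (SE 0.56), with an unadjusted limma p of 0.043, rank 483 of all loci, and an adjusted p of 0.9998. Tgtp1, its near-identical neighbour (chromosome 11, 48985327 to 48994172, minus strand, a locus that also carries the name Gm12185), had 42.0, 32.6 and 51.5 in Sle1b.IFNγR-/- and 146, 46.9 and 56.2 in B6.Sle1b. The ranges met between 46.9 and 51.5, and replicate 1 held 58.6% of the B6.Sle1b sum. The log2 difference of Tgtp1 was -0.80 (SE 0.41), with an unadjusted limma p of 0.074.

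Iigp1, the best studied GKS effector (chromosome 18, 60376027 to 60392634, plus strand), had 12.2, 14.6 and 16.8 scaled counts in Sle1b.IFNγR-/- and 83.6, 8.22 and 38.4 in B6.Sle1b. The B6.Sle1b libraries held both the highest and the lowest value, so the groups overlapped. These values stood for 13 to 14 fragments in the Sle1b.IFNγR-/- libraries and for 82, 10 and 41 in the B6.Sle1b libraries. Means were 14.5 ± 2.26 in Sle1b.IFNγR-/- and 43.4 ± 37.9 in B6.Sle1b (SD, n = 3 each). The log2 difference was -1.02 (SE 0.64), with an unadjusted limma p of 0.14. Gm4951, a predicted family gene beside Iigp1 (chromosome 18, 60212080 to 60247820, plus strand), had 8.74, 23.6 and 25.2 in Sle1b.IFNγR-/- and 31.6, 19.7 and 23.4 in B6.Sle1b. Its low value was in Sle1b.IFNγR-/- replicate 1, and the other 5 libraries lay close together. The log2 difference was -0.47 (SE 0.47), with an unadjusted limma p of 0.34.

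**Figure D2:**
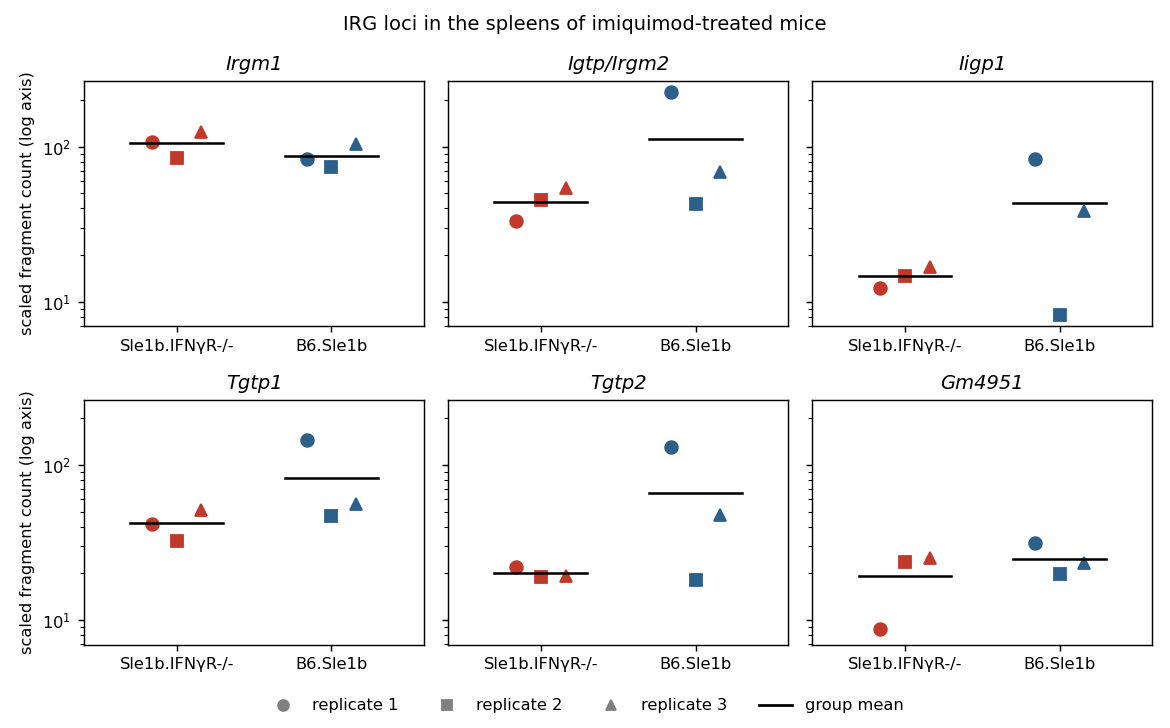
Scaled fragment counts of the 6 IRG loci on a log axis, with Sle1b.IFNγR-/- libraries on the left and B6.Sle1b libraries on the right of each panel. Symbols give the replicate and lines the group mean. B6.Sle1b replicate 1 is the highest library at Igtp/Irgm2, Iigp1, Tgtp1, Tgtp2 and Gm4951, and Sle1b.IFNγR-/- replicate 3 is the highest at Irgm1.

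Across the family, 0 of 6 loci passed an adjusted p of 0.05, where 0.0% of the 19227 loci passed by limma with Benjamini-Hochberg adjustment. At an unadjusted limma p under 0.05 there was 1 IRG locus in the lower direction (Tgtp2) and 0 in the higher. Over all loci there were 596 (3.1%), with 2.08% in the lower direction and 1.02% in the higher. A log2 difference of at most -1 was reached by 2 IRG loci, Iigp1 and Tgtp2, and by 3.45% of all loci. Of the 6 loci, 5 had a negative log2 difference, as had 58.1% of all loci. The groups overlapped at every IRG locus, while 5.19% of all loci were lower in Sle1b.IFNγR-/- without overlap and 3.51% were higher. The median log2 difference was -0.90 over the IRG loci and -0.08 over all loci tested. B6.Sle1b replicate 1 was the highest of the 6 libraries at 5 of 6 IRG loci, as it was at 37.9% of all loci. B6.Sle1b replicate 2 was the lowest of its group at all 6 IRG loci, as it was at 45.7% of all loci. At 5 IRG loci, all but Irgm1, replicate 1 was the highest and replicate 2 the lowest within B6.Sle1b, a pattern found at 33.0% of all loci.

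The size of the difference followed the B6.Sle1b library that was left out. Without B6.Sle1b replicate 1 the IRG median was -0.31, against 0.02 over all loci, and the log2 difference was -0.32 for Igtp/Irgm2, -0.54 for Tgtp2, -0.31 for Tgtp1, -0.31 for Iigp1, -0.29 for Gm4951 and 0.25 for Irgm1. Without B6.Sle1b replicate 2 the median was -1.31, against -0.17 over all loci. In that fit Igtp/Irgm2 stood at -1.50, Tgtp2 at -1.94, Iigp1 at -1.90, Tgtp1 at -1.11, Gm4951 at -0.61 and Irgm1 at 0.16. At an unadjusted limma p under 0.05, 4 of the 6 IRG loci (Igtp/Irgm2, Tgtp1, Tgtp2 and Iigp1) then stood lower, beside 7.56% of all loci. The signs of all 6 members were the same in both fits, and no member passed the adjusted limma p, although 5 loci of all 19227 (0.026%) did in each.

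Setting the ribosomal protein genes equal between libraries moved the median of all loci to 0.70 and the IRG median to -0.08. On that scale Irgm1 had 154, 106 and 162 scaled counts in Sle1b.IFNγR-/- and 28.0, 101 and 95.8 in B6.Sle1b, with no overlap, as had 19.7% of all loci in the higher direction and 0.161% in the lower. Its log2 difference there was 1.08, and that of Gm4951 0.31 and of Tgtp1 0.01. Tgtp2 at -0.44, Iigp1 at -0.22 and Igtp/Irgm2 at -0.18 stayed below 0. With the ribosomal level as a covariate, every IRG log2 difference lay between -0.19 (Tgtp2) and 0.29 (Irgm1), with a median of -0.08 against 0.06 over all loci, and 36 loci of other genes (0.187%) passed. The part of the RNA level of B6.Sle1b replicate 1 in these differences was not tested.

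**Figure D3:**
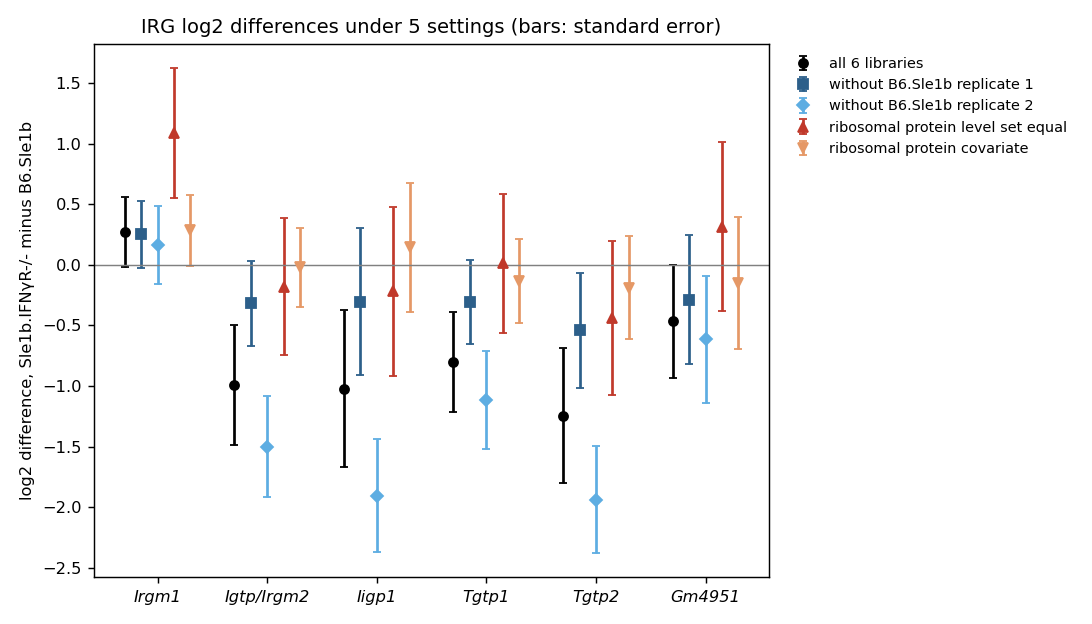
Log2 differences, Sle1b.IFNγR-/- minus B6.Sle1b, of the 6 IRG loci under 5 settings, with bars for the standard error. With all 6 libraries, 5 loci lie below 0; without B6.Sle1b replicate 1 they move towards 0, and without replicate 2 away from it, while Irgm1 lies above 0 under all 5 settings.

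The make-up of the IRG signal within a library does not depend on how libraries are scaled to one another. The regulator loci together took a larger share in Sle1b.IFNγR-/- spleens. This came through Irgm1, while the mean share of Igtp/Irgm2 was lower there. The summed level of the 6 loci was 226, 219 and 291 scaled counts in Sle1b.IFNγR-/- and 700, 210 and 337 in B6.Sle1b, a difference of -0.59 in mean log2(sum + 1) that was -0.13 without B6.Sle1b replicate 1. The GMS loci, Irgm1 and Igtp/Irgm2, made up 62.4%, 59.0% and 61.3% of that sum in Sle1b.IFNγR-/- and 44.0%, 55.7% and 50.8% in B6.Sle1b. The groups did not overlap, and the mean shares were 60.9% ± 1.75 in Sle1b.IFNγR-/- and 50.2% ± 5.89 in B6.Sle1b (SD, n = 3 each). The difference of 10.7 percentage points was 10.8 with each locus divided by its exonic length, and between 7.64 and 13.5 with any 1 library left out.

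The difference in share lay at Irgm1. It made up 47.7%, 38.5% and 42.8% of the family sum in Sle1b.IFNγR-/- and 11.9%, 35.3% and 30.6% in B6.Sle1b, again without overlap. Igtp/Irgm2, the other regulator locus, made up 17.9% ± 2.94 in Sle1b.IFNγR-/- and 24.2% ± 6.75 in B6.Sle1b (SD, n = 3 each), with overlap. Expressed against the sum of the other 5 IRG loci, Irgm1 stood at 0.911, 0.625 and 0.748 in Sle1b.IFNγR-/- and at 0.136, 0.545 and 0.440 in B6.Sle1b. Of the 19222 loci outside those 5, 21.1% had a ratio to those 5 loci that was higher in Sle1b.IFNγR-/- without overlap. Irgm1 was therefore 1 of many loci that stood higher relative to the other IRG loci. Of the effectors, Tgtp2 made up 8.33% ± 1.59 of the sum in Sle1b.IFNγR-/- and 13.9% ± 5.08 in B6.Sle1b, and Iigp1 made up 5.95% ± 0.64 in Sle1b.IFNγR-/- and 9.08% ± 4.48 in B6.Sle1b (SD, n = 3 each), both with overlap.

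**Figure D4:**
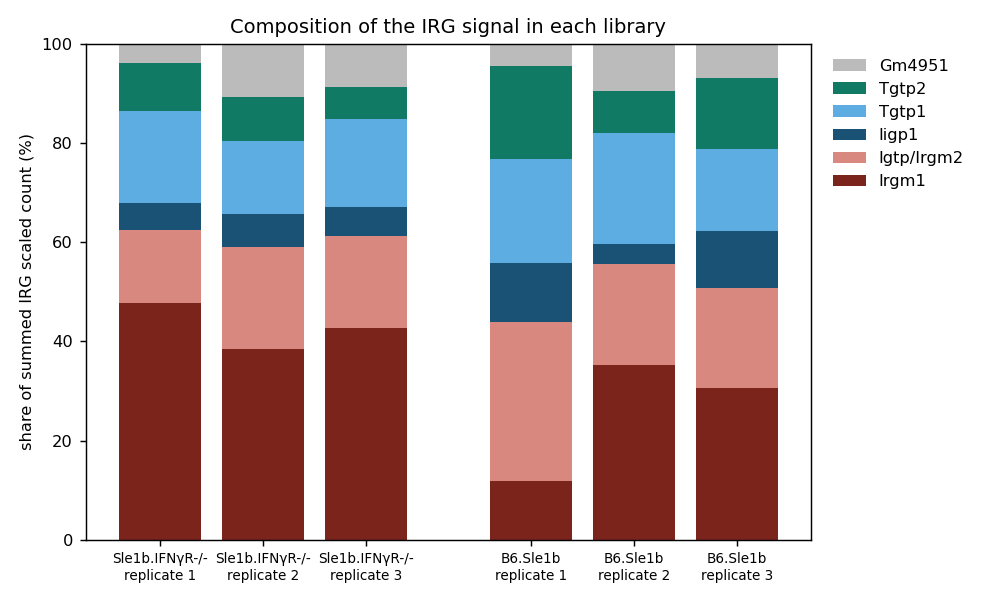
Share of the summed IRG scaled count held by each of the 6 loci, in percent, with the 3 Sle1b.IFNγR-/- libraries on the left and the 3 B6.Sle1b libraries on the right. Irgm1 is the bottom segment and lies between 38.5% and 47.7% in Sle1b.IFNγR-/- and between 11.9% and 35.3% in B6.Sle1b.

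Levels were compared between genes per kilobase of exon. In Sle1b.IFNγR-/- Irgm1 was the most abundant, at 18.2 ± 3.48 scaled counts per kilobase (SD, n = 3), and its libraries did not overlap with those of the next locus. Igtp/Irgm2 at 7.93 ± 1.87, Gm4951 at 7.25 ± 3.43 and Tgtp2 at 6.82 ± 0.54 followed and overlapped with their neighbours, and Tgtp1 at 4.90 ± 1.10 and Iigp1 at 2.50 ± 0.39 came last (SD, n = 3). In B6.Sle1b the order was Tgtp2 at 22.4 ± 20.01, Igtp/Irgm2 at 20.1 ± 17.7, Irgm1 at 14.96 ± 2.56, Tgtp1 at 9.68 ± 6.37, Gm4951 at 9.42 ± 2.29 and Iigp1 at 7.45 ± 6.51 scaled counts per kilobase (SD, n = 3). No neighbours in that order were separated beyond their spread. The Tgtp1 locus, which also carries the name Gm12185, was divided by 8569 exonic bases, against 2938 for Tgtp2. Their longest protein-coding transcripts had 2823 and 2810 bases. The place of Tgtp1 below Tgtp2 in both orders therefore depends on the length used.

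A scale for low values came from 1432 olfactory, vomeronasal and trace-amine receptor genes, which sensory neurons use and spleen is not known to. Their median lay between 1.31 and 1.68 scaled counts per kilobase and their 95th percentile between 13.1 and 15.5. Iigp1 was reached or passed per kilobase by 43.2%, 33.9% and 34.6% of these receptor genes in the Sle1b.IFNγR-/- libraries and by 4.89%, 50.2% and 14.0% in the B6.Sle1b libraries. In Sle1b.IFNγR-/- and in B6.Sle1b replicate 2, Iigp1 was thus at a level that many silent genes reach. For Irgm1 the share was between 2.58% and 5.17% in every library. Tgtp2 was reached by 14.0% to 16.8% of receptor genes in Sle1b.IFNγR-/-, and by 0.419%, 16.5% and 3.49% in B6.Sle1b. For Tgtp1 the shares were 21.9%, 25% and 18.7% in Sle1b.IFNγR-/- and 3.42%, 18.2% and 14.1% in B6.Sle1b. For Gm4951 they were 30.4%, 10.2% and 9.57%, and 6.56%, 12.4% and 9.08%, in the same order. For Igtp/Irgm2 they were 17.5%, 11.5% and 9.22%, and 0.628%, 11.9% and 5.66%.

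**Figure D5:**
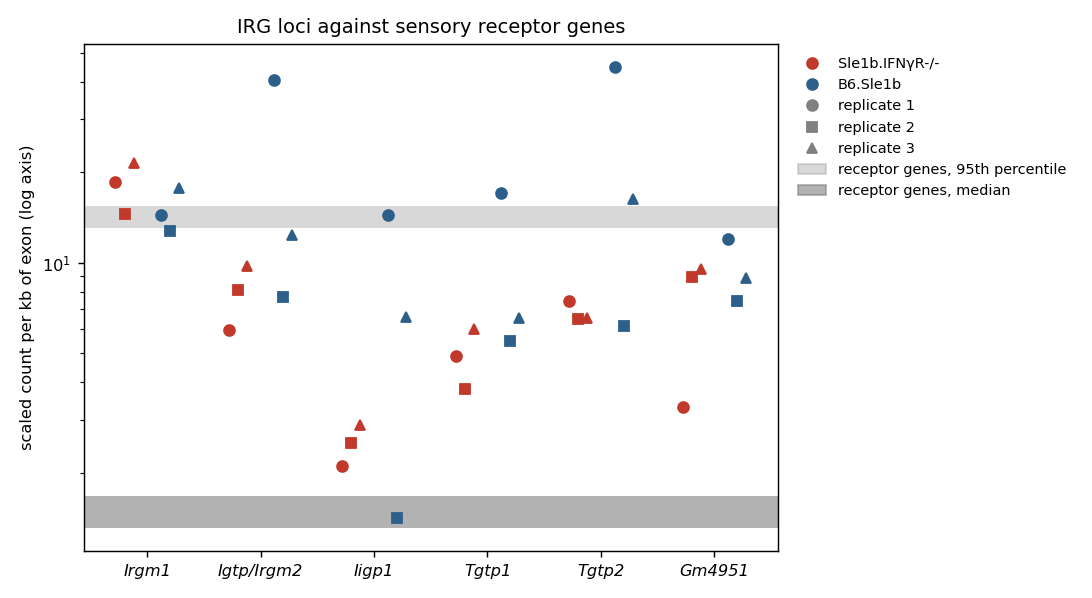
Scaled counts per kilobase of exon of the 6 IRG loci on a log axis, Sle1b.IFNγR-/- libraries left of B6.Sle1b libraries, against bands for the median (1.31 to 1.68) and the 95th percentile (13.1 to 15.5) of 1432 sensory receptor genes. Iigp1 in Sle1b.IFNγR-/- lies just above the median band, and Irgm1 lies near or above the percentile band in all 6 libraries.

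Near-identical copies limit the values of the Tgtp genes. Of the 50-base windows of the longest protein-coding transcript, 91.4% of those of Tgtp1 and 90.6% of those of Tgtp2 also occurred in another annotated gene, mostly in each other. The figure was 12.3% for Igtp (all shared with Irgm2), 7.36% for Irgm2, 4.62% for Gm4951, 3.19% for Iigp1 and 0.995% for Irgm1. The authors' deposited variance showed the same split. Its square root was between 68.7% and 108% of the value at Tgtp1 and between 89.3% and 140.5% at Tgtp2, more than at 98.6% or more of loci of like level in every library. At Irgm1 it was between 24.3% and 26.3%. The division of fragments between Tgtp1 and Tgtp2 is therefore uncertain, and their separate log2 differences are to be read with that limit.

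The members did not all vary together. Over the 6 libraries, Pearson's r between log2(value + 1) was 0.96 for Iigp1 with Tgtp2, 0.95 for Igtp/Irgm2 with Tgtp1 and 0.92 for Tgtp1 with Tgtp2. Irgm1 had an r between -0.23 and 0.02 with the other 5. These correlations share the libraries and their RNA level: without B6.Sle1b replicate 1 they were 0.90, 0.60 and 0.56 over 5 libraries, and those of Irgm1 lay between -0.10 and 0.48. The loci whose pattern was most like the family sum, by Pearson's r over 6 libraries, were Myo1g, a myosin of blood cells (0.997), Mcm6, a subunit of the replicative helicase (0.995), Arrb1, a β-arrestin (0.995), Ylpm1 (0.994), Polr3c, an RNA polymerase III subunit (0.993), H2-Aa, an MHC class II chain (0.993), Spcs3, a signal peptidase subunit (0.993), and Slc18a2, a monoamine transporter (0.992). In all, 216 loci (1.12%) had an r of at least 0.95. With both values divided by the ribosomal level, the closest were Ago1, an Argonaute protein (0.998), 1700065D16Rik (0.997), Gm16178 (0.994), Gm412 (0.990), Olfr1342 (0.990), Gm15106 (0.988), Vmn1r70 (0.988) and Gm8331 (0.988), which include receptor genes of sensory neurons, and no gene was on both lists.

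The other genes of the family were split in direction. Of 13 listed, 10 were tested, 5 had a negative and 5 a positive log2 difference, 0 passed the adjusted p by limma and 1 had an unadjusted p under 0.05. Their median was -0.12, or 0.02 without B6.Sle1b replicate 1. The gene with an unadjusted p under 0.05 was Gm4841, a predicted interferon-inducible GTPase, with 12.2, 2.25 and 4.79 scaled counts in Sle1b.IFNγR-/- and 26.5, 26.3 and 15 in B6.Sle1b. Its groups did not overlap, its log2 difference was -1.86 (SE 0.66), and the unadjusted limma p was 0.014. Irgq was also lower without overlap, at 43.7, 66.3 and 43.1 in Sle1b.IFNγR-/- and 73.4, 66.6 and 75 in B6.Sle1b, with a log2 difference of -0.51. Irgc1, a family gene known from the testis, was higher without overlap, at 23.6, 20.2 and 21.6 in Sle1b.IFNγR-/- and 6.11, 14.0 and 18.7 in B6.Sle1b, with a log2 difference of 0.83. At equal ribosomal level the groups of Gm4841 and Irgq overlapped.

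The remaining 7 tested family genes overlapped between the groups. Their log2 differences were -0.90 for F830016B08Rik, -0.66 for Gm18853, -0.25 for 9930111J21Rik2, 0.02 for Gm5431, 0.14 for Gm4759, 0.36 for Gm12187 and 0.49 for the locus of 9930111J21Rik1 and Psme2b. Gm12250 and Gm12186 had a mean under 10 and were not tested. Ifi47, an IRG gene counted here with the interferon-γ effector genes and picked out after its values were seen, shared its locus with Olfr56. It had 83.1, 73.0 and 91.0 scaled counts in Sle1b.IFNγR-/- and 110, 97.0 and 115 in B6.Sle1b, with no overlap. Its log2 difference was -0.38 (SE 0.27), with an unadjusted limma p of 0.18, and its RefSeq promoter held neither the GAS nor the ISRE letters. Its B6.Sle1b libraries lay close together, unlike those of the effectors.

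The guanylate-binding proteins work with IRG proteins on pathogen vacuoles. Of their 7 loci tested, 6 had a negative log2 difference, where 58.1% of all loci had one, with a median of -0.45, and 0 had an unadjusted limma p under 0.05. Without B6.Sle1b replicate 1 the median was -0.09, with 5 of 7 below 0, beside 9301 of all 19227 loci. With the ribosomal level set equal 1 of 7 was below 0, beside 1412 of all 19227 loci. The locus of Gbp10 and Gbp6 was lower without overlap, at 99.7, 85.4 and 101 scaled counts in Sle1b.IFNγR-/- and 198, 116 and 129 in B6.Sle1b, a log2 difference of -0.59 (SE 0.29). The locus of Gbp4, Gbp8 and Gbp9 had a log2 difference of -0.54 and Gbp3 one of -0.91, both with overlap.

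Of the other dynamin-like GTPases, 8 of 8 tested had a negative log2 difference, where 58.1% of all loci had one, with a median of -0.53. At an unadjusted limma p under 0.05, 3 stood lower, beside 2.08% of all loci. Mx2, an antiviral GTPase, had 7.00, 16.9 and 13.2 scaled counts in Sle1b.IFNγR-/- and 35.7, 34.5 and 19.7 in B6.Sle1b, with no overlap and a log2 difference of -1.24. Gvin1, a very large inducible GTPase, had 92.7, 114 and 99.4 in Sle1b.IFNγR-/- and 624, 108 and 222 in B6.Sle1b. It had the same order of B6.Sle1b libraries as the IRG effectors, and a log2 difference of -1.27 (SE 0.48). The locus of Gm18852 and Gm4070 had a log2 difference of -1.08. Without B6.Sle1b replicate 1 the list's median was -0.26, with 5 of 8 below 0, beside 9301 of all 19227 loci. With the ribosomal level set equal the list's median was 0.26, with 3 of 8 below 0, beside 1412 of all 19227 loci.

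Upstream of the IRG genes, Ifngr1, Pias1 and Irf1 had negative log2 differences, and none of them passed the adjusted limma p. Jak2, a kinase of the receptor, and Socs3, an inhibitor of cytokine signalling, had positive ones, at 0.20 and 0.07, so these genes did not share a direction. Ifngr1 had a log2 difference of -0.98 with overlap. Pias1, a SUMO ligase that restrains interferon signalling, had 42.8, 41.6 and 39.5 scaled counts in Sle1b.IFNγR-/- and 135, 46.9 and 68.4 in B6.Sle1b, without overlap and with a log2 difference of -0.86. Both had an unadjusted limma p under 0.05. Irf1, a transcription factor of interferon-inducible promoters, had 8.74, 22.5 and 7.19 in Sle1b.IFNγR-/- and 33.6, 15.6 and 11.2 in B6.Sle1b, a log2 difference of -0.64. Ifngr2, the other receptor chain, had 5.25, 10.1 and 4.79 in Sle1b.IFNγR-/- and 13.2, 12.3 and 7.5 in B6.Sle1b and was below the level tested. Ifng itself had 2.62, 0 and 2.40 in Sle1b.IFNγR-/- and 6.11, 4.11 and 3.75 in B6.Sle1b, no more than 6 fragments in any library.

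Genes of the proteins that place IRG proteins on vacuoles had medians near that of all loci, and these turned positive without B6.Sle1b replicate 1. Of the ATG conjugation genes, 5 of 10 tested had a negative log2 difference, beside 58.1% of all loci. The median was -0.08, or 0.26 with 4 of 10 negative without that library, beside 9301 of all 19227 loci. The smallest p belonged to Sqstm1, an autophagy adaptor (log2 difference -0.99), the locus of Gabarap and Phf23 (-0.45) and Atg3, the enzyme that conjugates LC3 proteins (-0.55). Of the ubiquitin ligases and adaptors of the vacuole, 5 of 8 had a negative log2 difference, with a median of -0.12, or 0.41 with 1 of 8 negative without B6.Sle1b replicate 1. At equal ribosomal level 0 of these 8 were negative, beside 1412 of all 19227 loci. Trim21, a ubiquitin ligase, stood at -0.64, Ube2n, a ubiquitin-conjugating enzyme, at 0.62 and Traf6, a ubiquitin ligase, at -0.29. None of these 18 loci had an unadjusted limma p under 0.05 or groups without overlap.

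Genes known mainly from type I interferon gave a median close to that of all loci. Of 20 tested, 13 had a negative log2 difference, beside 58.1% of all loci. The median was -0.09, or 0.03 without B6.Sle1b replicate 1. At an unadjusted limma p under 0.05 there were 0, beside 3.1% of all loci. Irf7, a regulator of type I interferon, stood at -1.35, Oasl2 at -0.69 and Rsad2, the antiviral protein viperin, at -0.46. Other interferon-γ effector genes lay lower, with 14 of 16 negative, beside 58.1% of all loci. Their median was -0.49, or -0.37 without B6.Sle1b replicate 1. At an unadjusted limma p under 0.05, 4 stood lower, beside 2.08% of all loci. Cxcl9, a chemokine, had a log2 difference of -3.14, Psmb9, an immunoproteasome subunit, one of -1.59 and Serpina3f, a serine protease inhibitor, one of -1.12. Each had an adjusted limma p of 0.9998. With the ribosomal level set equal, the medians were 0.71 for the type I list, 0.31 for the effector list and 0.35 for the guanylate-binding proteins, beside -0.08 for the IRG loci and 0.70 for all loci. The difference between any 2 of these lists was not tested.

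Summed cell type markers varied widely among the B6.Sle1b libraries, as the IRG sum did. Plasma cell markers were lower at 6 of 6 tested loci, with a median log2 difference of -1.10, or -0.47 without B6.Sle1b replicate 1. At equal ribosomal level the median was -0.29, with 4 of 6 lower, beside 1412 of all 19227 loci. Plasma cell markers summed to between 207 and 237 scaled counts in Sle1b.IFNγR-/- and between 260 and 1193 in B6.Sle1b, with Tnfrsf17 at 0 in every library. Macrophage and monocyte markers were lower at 8 of 12 loci and summed to between 722 and 757 in Sle1b.IFNγR-/- and between 442 and 2170 in B6.Sle1b. Their median was -0.13, or 0.26 with 4 of 12 lower without B6.Sle1b replicate 1. Erythroid markers were lower at 4 of 10 loci and summed to between 659 and 1006 in Sle1b.IFNγR-/- and between 272 and 3460 in B6.Sle1b. Their median was 0.17, or 1.09 with 0 of 10 lower without B6.Sle1b replicate 1. Dendritic cell markers were lower at 6 of 8 loci and summed to between 267 and 276 in Sle1b.IFNγR-/- and between 234 and 411 in B6.Sle1b. Their median was -0.23, or 0.01 with 3 of 8 lower without B6.Sle1b replicate 1. Without that library 9301 of all 19227 loci were lower. Each of these sums was highest in B6.Sle1b replicate 1, as was the IRG sum. The ribosomal protein, housekeeping, B cell and T cell sums were highest there too, so this peak was not particular to these cell types. The part of cell types in the IRG differences was not tested.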

How the data were processed

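Spleen RNA of 3 Sle1b.IFNγR-/- and 3 B6.Sle1b samples was extracted with TRIzol and made into cDNA with an Ovation V2 kit, per the labels' protocols. Per the submitters' processing notes, the tools were TopHat2 2.0.9, Cufflinks 2.2.1 and CASAVA, and the build was GRCm38. How strand and multi-mapped reads were handled is not stated there. The deposited signal, per the file headers and its title, is a fragment count per locus after quartile scaling by the authors. Their variance estimate, a score here, is in the same deposited table and served only for the error at each locus; 12 further per-sample columns were not used. Repeated rows (1530481) were collapsed to 426574 loci, of which 1170 named loci had more than 1 name.

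The test was limma 3.58.1 (R 4.3.3, intensity trend, genotype only) on log2(value + 1), over the 19227 named loci whose mean reached 10, with Benjamini-Hochberg adjusted p under 0.05 as threshold. This scale understates changes of low genes. Sums, shares and medians have no test. Tables were made in python 3.11.15 with pandas 2.3.3 and numpy 2.4.6, and plots with matplotlib 3.10.9. Coordinates and exon lengths came from GENCODE M21 on GRCm38, and promoters from RefSeq. Values were nearly all whole multiples of 1 step per library (99.8% within 0.01 of a step), which gave the fragments behind each value. Since not all were, count tests were not run.

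Members and lists were chosen with earlier results of these data known. Genes named were all members, tested genes of the other IRG list, Ifngr1, Ifngr2, Irf1, Ifng, up to 3 of smallest p in each pathway list and the 8 loci most like the family sum on each of 2 scales. Cell type and ribosomal lists are given by counts, and Jak2 and Socs3 were named after their values were seen. Another gene of the rule, and the counts of its list, are not reported here. Alternatives were median-ratio, trimmed-mean, total and ribosomal scaling, pseudocounts of 0.5 and 10, no filter or a minimum of 50, a robust fit, a ribosomal covariate, a replicate block and leaving out each library.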

Additional observations from a re-analysis of the deposited data

How the results depend on the processing

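No IRG locus passed the adjusted limma p under any of the 17 alternatives, and Irgm1 was higher and Igtp/Irgm2 and Tgtp2 lower in Sle1b.IFNγR-/- under every alternative that gave them a value. Over all loci, 1 was called with total scaling, 1 with ribosomal protein levels set equal, 36 with the ribosomal covariate and between 0 and 5 with 1 library left out (5 without B6.Sle1b replicate 1 and 5 without replicate 2), against 0 with all libraries. The summed IRG level reversed to 0.23 with ribosomal levels set equal and to 0.0886 with the covariate, and the IRG median moved to -0.0845 with ribosomal levels set equal and to -0.0768 with the covariate. The sum over the ribosomal level, 0.23 as a log2 difference, reversed to -0.27 over housekeeping genes. Single loci that reversed were Iigp1 (0.14 with the covariate), Tgtp1 (0.0106 with ribosomal levels equal) and Gm4951 (0.31 with ribosomal levels equal). The cause was not tested. With 1 library left out, the summed level lay between -0.996 and -0.13, the IRG median between -1.31 and -0.31, the sum over the ribosomal level between 0.12 and 0.35 and the GMS share difference between 7.64 and 13.5 percentage points. Replicate numbers did not pair the libraries (r of deviations 0.012, -0.027 and -0.011), and the fit with the number as a block called 0 loci, with 567 at an unadjusted limma p under 0.05. Iigp1, Tgtp2 and Gm4951 fell below the minimum of 50. The planned edgeR and DESeq2 tests were not run because the values are scaled, nor were summed duplicate loci, since each member name occurs at 1 locus. Depth limits Iigp1 and Gm4951, each at 10 fragments in its lowest library.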
